A study of Mus musculus with 26 samples.

Results

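The nuclear-encoded subunits of the oxidative phosphorylation chain were compared, complex by complex, in double positive (DP) cells sorted from 3 tissues. Members were the rows whose symbol starts with Nduf, Uqcr, Atp5, Cox4, Cox5, Cox6, Cox7 or Cox8, together with Sdha, Sdhb, Sdhc and Sdhd, which gave 84 of the 13765 genes in the table. Of these, 76 encode subunits of complexes I to V and 8 do not: 7 are assembly factors (Ndufaf1, Ndufaf2, Ndufaf3, Ndufaf4, Cox7a2l, Atp5s and Atp5sl) and 1, Cox4nb, is an older symbol for Emc8 of the endoplasmic reticulum membrane complex. Ndufa4 was counted with complex IV, where its protein is found. Of the 84, 82 reached the level needed for testing, a normalised read count of at least 100 in at least 4 of the 12 pools; Cox6a2 and Cox7a1 did not.

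The cells were viable CD4+CD8b+TCR- lymphocytes from aortic arch, mediastinal adipose tissue and thymus of female C57BL/6J mice aged 8 weeks, all without treatment or a named allele. Tissue of 5 mice went into a pool, each of the 3 tissues had 4 pools, and lysates of 200 sorted cells were amplified for 18 cycles before sequencing. Arch and adipose tissue were digested enzymatically, a step that is not stated for thymus, so tissue and digestion cannot be told apart. The deposited normalised read count of each gene and pool was used, and the pool was the replicate. The labels do not tie pools of different tissues to the same mice, and p-values measure the spread between pools.

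Mitochondria make most of a cell's ATP by passing electrons from NADH and succinate through complexes I to IV to oxygen and letting the protons pumped on the way return through complex V, the ATP synthase. Most subunits are encoded in the nucleus and imported, and they assemble with a small set encoded by mitochondrial DNA that was not analysed here. DP thymocytes divide fast as they enter the stage and then rest while their receptors are tested for selection, and most of them die in the thymic cortex.

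Recovered reads per pool ran from 11577253 to 34599519. The shallowest were arch pool 2 (11577253), thymus pool 3 (13473516), adipose pool 2 (14279190) and arch pool 4 (14291241). All 9 DP markers had reads in each tissue, and their summed level was 7659 to 9004 CPM (reads scaled to a common total) in arch, 6734 to 12494 in adipose tissue and 18942 to 22134 in thymus, where it lay above every pool of the other tissues. Several pools stood apart in markers of other cells. The sum over 10 fibroblast markers was 3871 CPM in arch pool 4 and at most 183.7 in any other pool. In the same units the 7 smooth muscle markers with a row reached 1883 in arch pool 2, the 9 macrophage markers 972.9 in arch pool 2 and 253.1 in adipose pool 1, and the 7 B cell markers 1758 in adipose pool 1. The 4 adipocyte markers with a row, of 8 listed, reached 169 CPM in adipose pool 1 and at most 12.8 in any other pool. The 6 endothelial markers with a row were also highest there, at 239 CPM. Brown adipocytes and cardiomyocytes are rich in respiratory chain, but only 3 of 8 and 4 of 9 of their markers had a row. Those sums stayed at or below 9.65 and 5.34 CPM in all 12 pools. In bulk samples, fewer cells of a type and less RNA per cell cannot be told apart. The part of the other cells in the results below was not tested, and calls by limma that involve arch are also given without arch pools 2 and 4.

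Stretches upstream of the listed start of 5 members are shown because these genes carried the calls reported below, Ndufs7 by all 3 tools used and Sdhb, Cox5b, Cox8a and Atp5h by 1 of them. They come from RefSeq (GRCm38.p6), lie within the 250 bases before the listed start and leave out any base that an annotated exon covers. The Ndufs7 stretch is chr10:80249205-80249311 on the plus strand, between exons of a longer form of the gene, whose annotated span is chr10:80249105-80256794. It is therefore intronic in that form and upstream only of the listed start. The others are chr4:140961021-140961202 (Sdhb, plus strand), chr1:36691237-36691448 (Cox5b, plus strand), chr19:7217617-7217866 (Cox8a, minus strand) and chr11:115419963-115420127 (Atp5h, minus strand). Capitals mark a match to the NRF1 motif; nuclear respiratory factor NRF1 is a known activator of respiratory chain genes.
Ndufs7: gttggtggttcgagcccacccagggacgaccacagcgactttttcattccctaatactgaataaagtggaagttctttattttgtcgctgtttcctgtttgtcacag
Sdhb: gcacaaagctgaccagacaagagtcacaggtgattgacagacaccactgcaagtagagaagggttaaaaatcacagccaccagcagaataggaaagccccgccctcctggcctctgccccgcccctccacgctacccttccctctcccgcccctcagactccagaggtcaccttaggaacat
Cox5b: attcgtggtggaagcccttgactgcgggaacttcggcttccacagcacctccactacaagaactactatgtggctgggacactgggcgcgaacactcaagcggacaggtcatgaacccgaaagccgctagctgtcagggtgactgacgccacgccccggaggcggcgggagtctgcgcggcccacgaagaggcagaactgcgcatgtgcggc
Cox8a: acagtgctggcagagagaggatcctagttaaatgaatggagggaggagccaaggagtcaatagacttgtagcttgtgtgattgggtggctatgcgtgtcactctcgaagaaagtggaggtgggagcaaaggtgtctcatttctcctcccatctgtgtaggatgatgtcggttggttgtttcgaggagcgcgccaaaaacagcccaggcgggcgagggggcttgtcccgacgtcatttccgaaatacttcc
Atp5h: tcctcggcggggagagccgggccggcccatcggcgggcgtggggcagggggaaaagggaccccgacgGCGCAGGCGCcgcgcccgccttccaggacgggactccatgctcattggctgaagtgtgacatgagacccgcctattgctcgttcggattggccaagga
Only the Atp5h stretch held a match. Over the 250 bases before the start, on both strands, 14 of the 77 promoter entries found for 71 of the 84 members held the NRF1 motif (18.2%), against 9.35% of 8445 entries of tested genes and 3.74% of all 32851 entries. The 14 entries belong to Atp5c1, Atp5g2, Atp5h, Atp5k, Cox6a1, Ndufa11, Ndufa5, Ndufa8, Ndufaf4, Ndufb4, Ndufs6, Sdha and Sdhd, spread over complexes I, II, IV and V. The ETS motif CCGGAAGT was in 3.9% of the members' entries, against 6.86% of those of tested genes, and the YY1 motif AAGATGGCG in 2.6% against 1.41%. The letters of the 3 motifs were searched separately, and a match describes the sequence only.

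The share of the respiratory chain in the polyadenylated RNA overlapped between the 3 tissues. Subunits of complexes I to V together averaged 1.93 ± 0.217% of all normalised counts for arch, 1.93 ± 0.153% for adipose tissue and 2.19 ± 0.111% for thymus (SD, n = 4 pools each). By pool the shares were 1.89%, 1.88%, 1.73% and 2.24% in arch, 1.79%, 2.13%, 1.96% and 1.84% in adipose tissue, and 2.11%, 2.35%, 2.17% and 2.13% in thymus. Arch pool 4 and adipose pool 2 lay within the thymus range and the other 6 extrathymic pools below it. In summed normalised counts the chain reached 0.984 of the thymus mean in arch and 0.914 in adipose tissue. In CPM the ratios were 0.883 and 0.881. Over all genes, normalised counts summed to 21248431 to 22219633 in the arch pools and 18961685 to 19901290 in the thymus pools. Ratios of summed counts between arch and thymus therefore stand higher than ratios in CPM.

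As shares of all counts, complex V stood apart: it took 0.581% to 0.691% in the arch pools and 0.626% to 0.666% in the adipose pools, all below the 0.711% to 0.762% of the thymus pools. Complex II took 0.0622% to 0.0684% in arch, below the 0.0781% to 0.0971% of thymus, and the shares of the other complexes overlapped. In summed normalised counts only complex II separated, between arch and thymus. Complex I summed to 116726 ± 18815 in arch, 113472 ± 20846 in adipose cells and 128791 ± 12702 in thymus. That is 0.906 of the thymus mean for arch and 0.881 for adipose tissue, and 0.813 and 0.848 in CPM. Complex II summed to 14538, 14358, 13336 and 15159 in the arch pools, to 13199, 21419.6, 16694 and 15743 in the adipose pools and to 17459, 19319, 15323 and 18254 in the thymus pools. All arch values for complex II lay below all thymus values, while the adipose values spanned both. Complex III stood at 1.04 of the thymus mean in arch and 0.951 in adipose tissue. Complex IV summed to 93170.3, 101946, 88832 and 145646 in the arch pools, to 77267, 101443, 87932 and 77777 in the adipose pools and to 84775, 102197, 90265 and 87835 in the thymus pools. Its mean in arch was 1.18 times that in thymus in summed counts and 1.05 times in CPM, and only arch pool 4 exceeded the thymus range. In summed counts complex V stood at 0.935 of the thymus mean in arch and 0.909 in adipose tissue, with overlapping pools; in CPM the ratios were 0.841 and 0.878. No test was made on these sums.

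**Figure D1:**
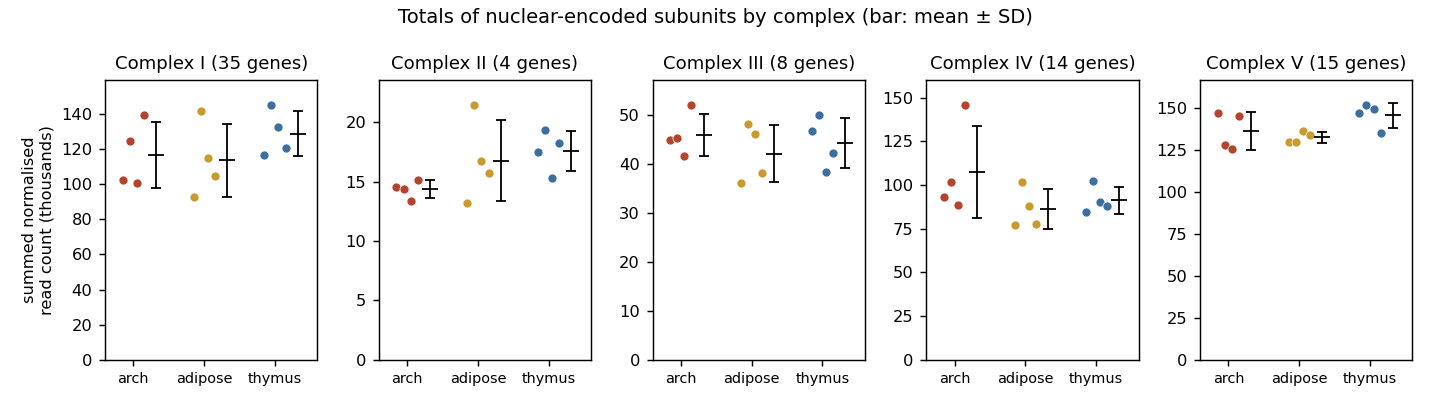
Summed normalised read counts (y axis from 0) of the subunits of each complex, in arch, adipose and thymus pools; points are pools and bars the mean ± SD of 4. Tissues overlap for most complexes, complex II lies lower in the 4 arch pools than in the 4 thymus pools, and arch pool 4 is highest for complex IV at 145646.

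Measured per kilobase of transcript, complex IV and V subunits were the most abundant. The median member level over the 12 pools was 8492 normalised counts per kilobase for complex IV, 7664 for complex V, 5965 for complex III, 3758 for complex I and 2535 for complex II. Cox4i1, the regulatory subunit 4 of cytochrome c oxidase, led at 46518 per kilobase. Uqcrh, the acidic hinge protein of complex III, followed at 21719.8, Atp5h, a peripheral stalk subunit of the ATP synthase, at 20197, and Cox6b1 at 19702. Subunits of 1 complex were not at equal levels: within complex I they ran from 581 per kilobase (Ndufb2) to 9191 (Ndufa6). Length was the median over the annotated coding transcripts of a gene, 2413 bases for Ndufb2 and 382 for Ndufa6. These levels therefore depend on which transcript forms are annotated, and the forms present in the cells were not measured.

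Members were steadier between pools than other genes. The median SD of log2 values within a tissue was 0.43 for tested members against 1.04 for all tested genes in arch, 0.35 against 0.73 in adipose tissue, and 0.25 against 0.74 in thymus. Level and spread were not separated here.

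Against thymus, arch cells showed a single member past the test. Ndufs7 fell, and it was 1 of 82 tested members (1.22%), while limma called 6.57% of all 9106 tested genes at a Benjamini-Hochberg adjusted p under 0.05 (2.58% lower, 3.99% higher). At an unadjusted p under 0.05 there were 10 members, 12.2% of those tested, beside 22.7% of all tested genes. The edgeR test on recovered reads likewise called only Ndufs7, against 4.01% of all genes, and DESeq2 called 5 members (Ndufs7, Sdhb, Atp5h, Cox5b and Cox8a), against 11.1%. The median log2 change was -0.15 over the members and -0.20 over all tested genes. Pool values of arch and thymus did not overlap for 12 of the 82 members, beside 13.2% of all genes (6.64% lower and 6.6% higher): Ndufs7, Ndufa1, Ndufa12, Ndufb10, Sdhb, Sdhc, Ndufa4 and Atp5h had all arch pools below all thymus pools, and Ndufb5, Cox8a, Atp5g1 and Atp5o had them above.

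In adipose cells against thymus, limma called 0 of 82 members, as did edgeR and DESeq2, against 2.84% (2.17% higher), 2.33% and 5.96% of all tested genes. Unadjusted p-values under 0.05 were found for 3 members, Atp5h, Ndufa4 and Ndufb10, all with negative changes, beside 12.8% of all genes. Values did not overlap for 7 members (Cox5b, Cox6b2 and Ndufb8 above thymus; Atp5e, Ndufa4, Ndufaf3 and Ndufb10 below), beside 10.5% of all genes (5.48% higher and 4.99% lower). The median change was -0.19 for members and -0.01 for all genes.

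No member passed a test between arch and adipose cells. Limma, edgeR and DESeq2 called 0 of 82, against 0.176%, 0.0879% and 1.9% of all tested genes, and 6 members had an unadjusted limma p under 0.05, beside 10.5% of all genes. Non-overlapping values were seen for 5 members (Atp5g1, Cox6b1, Cox8a and Ndufa6 above adipose tissue, Ndufs7 below), beside 5.35% of all genes (2.46% higher and 2.89% lower). The median change was 0.05 for members and -0.17 for all genes. The comparisons of arch and of adipose cells with thymus share the 4 thymus pools.

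**Figure D2:**
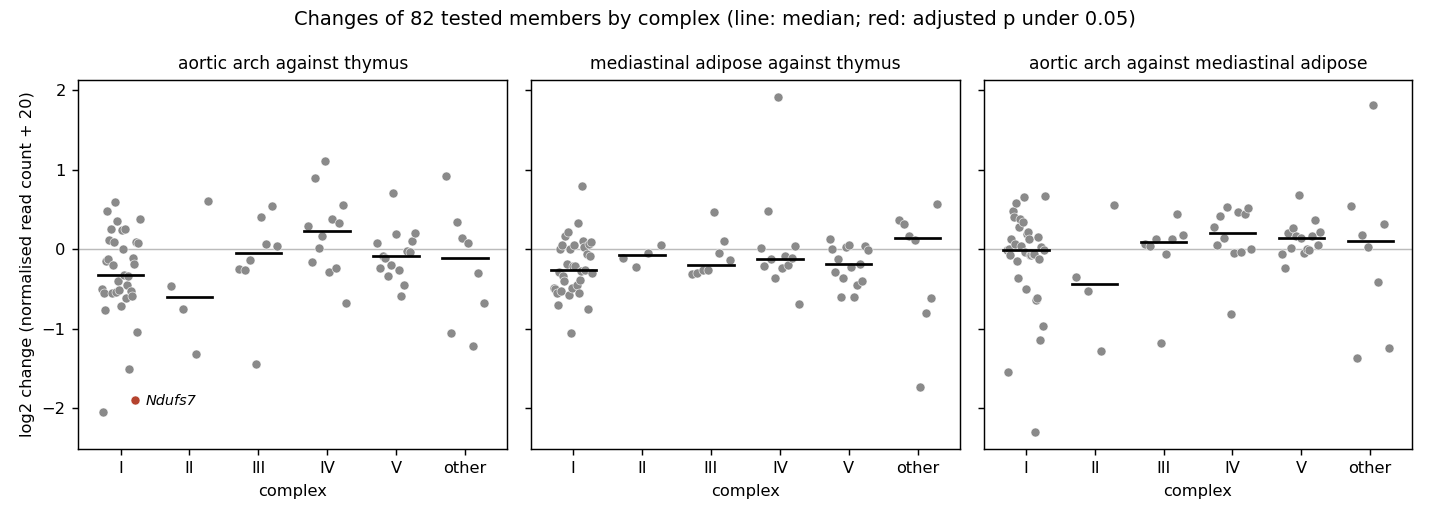
Log2 change (y axis, normalised read count + 20) of each of the 82 tested members in arch against thymus, adipose against thymus and arch against adipose, by complex (x axis; other: assembly factors and Cox4nb); lines are medians and red marks an adjusted p under 0.05. Ndufs7, at -1.90 in arch against thymus, is the only red point, and most points lie between -1 and 1.

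Complex I takes electrons from NADH and hands them to ubiquinone. Its core subunits hold the flavin and the chain of iron-sulphur clusters, and Ndufs7 binds the terminal cluster next to the ubiquinone site. Ndufs7 had normalised read counts of 979.6, 1027, 1106 and 386 in the arch pools, 1137, 2345, 2768 and 1455 in the adipose pools, and 2095, 3255, 4036 and 3253 in the thymus pools. The highest arch value was below the lowest value of either other tissue, and adipose and thymus overlapped. The log2 change was -1.90 ± 0.44 (SE) in arch against thymus (limma, Benjamini-Hochberg adjusted p = 0.0131; edgeR 0.028; DESeq2 0.000193), lower in 4 of 4 arch pools. Without arch pools 2 and 4 it was -1.55 with a limma adjusted p of 0.0633, and without those and thymus pool 3 -1.42 with 0.114, so the call was lost in both. The same gene stood at -0.76 ± 0.44 in adipose against thymus (limma adjusted p = 0.53) and at -1.14 ± 0.44 in arch against adipose (limma adjusted p = 0.419). No 50-base stretch of its transcripts is shared with another gene.

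The other core subunits did not follow it past the test. Of the 7 core subunits measured, 5 had negative changes in arch against thymus, with a median of -0.60, while in adipose against thymus 5 were positive with a median of 0.06. Ndufs8, which binds the clusters before that of Ndufs7, averaged 4765 ± 764 in arch, 4738 ± 1361 in adipose cells and 4483 ± 919.5 in thymus. Ndufs3, a core subunit of the peripheral arm, averaged 2406 ± 504 in arch cells, 3908 ± 1581 in adipose cells and 3918 ± 2121 in thymus cells. Ndufs1, the largest subunit of the NADH-oxidising arm, had 2814, 1444, 2030.3 and 0 in arch, 1449, 5763, 3204 and 3650.3 in adipose tissue, and 2156, 2729, 836 and 2124 in thymus. Arch pool 4, with no read, set its fitted change: -1.50 ± 1.07 in arch against thymus with all pools (limma adjusted p = 0.429) and 0.17 without that pool. With all pools it stood at 0.80 ± 1.07 in adipose against thymus and -2.30 ± 1.07 in arch against adipose, neither called by limma. Ndufv1, which binds the flavin, averaged 1640.3 ± 1228 in arch, 2746 ± 1499.7 in adipose cells and 3029.8 ± 1512 in thymus (arch against thymus, limma adjusted p = 0.287). Ndufv2, the most abundant core subunit in counts, averaged 6234 ± 2794, 5769.9 ± 1193 and 5559.8 ± 1723 in arch, adipose tissue and thymus.

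**Figure D3:**
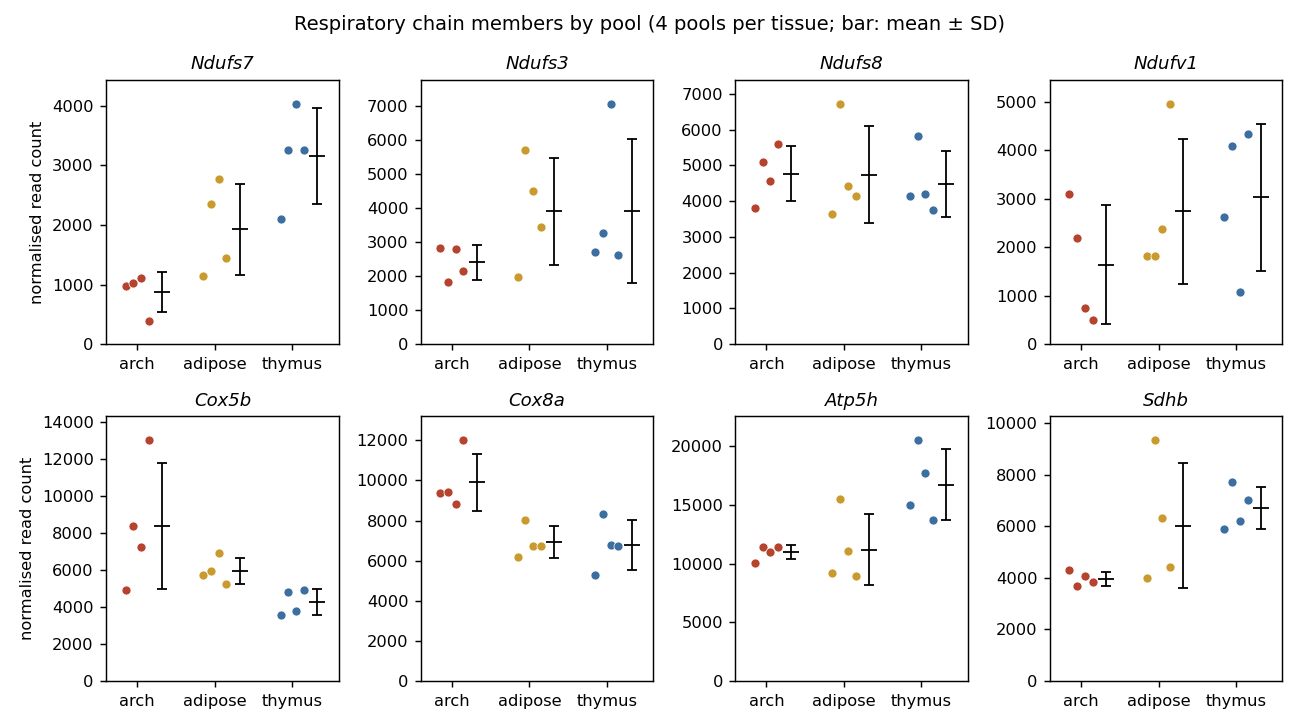
Normalised read counts (y axis from 0) of 8 members in each arch, adipose and thymus pool; points are pools and bars the mean ± SD of 4. Ndufs7 in arch lies below every adipose and thymus value, whereas Ndufs3, Ndufs8 and Ndufv1, other core subunits of complex I, overlap between the 3 tissues.

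The 28 accessory subunits of complex I, which surround the core, had 0 calls by limma, edgeR or DESeq2 in each comparison. Their median change was -0.19 in arch against thymus, within a range of -2.04 to 0.60, and -0.29 in adipose against thymus, within -1.06 to 0.33, where 22 of 28 were negative. Ndufb10, of the membrane arm, had 2637, 4381, 3240.1 and 2892 in arch, 3004, 3270.5, 3029 and 3232 in adipose tissue, and 4551, 5040.1, 4674 and 4470.2 in thymus. All 8 extrathymic pools lay below the 4 thymus pools, with changes of -0.53 ± 0.26 in arch (limma adjusted p = 0.229) and -0.58 ± 0.26 in adipose tissue (limma adjusted p = 0.354). Ndufa10 had the lowest fitted change of any member in arch against thymus, -2.04 ± 0.86 (limma adjusted p = 0.162), with values of 1462, 1710.1, 2622 and 26.4 in arch, 1658, 2061, 2144 and 3018 in adipose tissue, and 2525, 2275, 3752 and 4108 in thymus. Without arch pool 4, which was again far below the rest, the change was -0.71, above the -1.55 of Ndufs7 without that pool; of the other arch pools only pool 3 reached into the thymus range. Ndufb11, the most abundant complex I subunit in counts, averaged 7223 ± 2007 in arch, 5579 ± 1098 in adipose cells and 5528 ± 812 in thymus. Ndufb2 averaged 1622 ± 1459, 867 ± 376 and 1718 ± 516 in arch, adipose tissue and thymus, the lowest change of a complex I subunit in adipose against thymus (-1.06 ± 0.58, limma adjusted p = 0.488). Ndufv3 averaged 3649 ± 1387 in arch and 2203 ± 427 in adipose tissue, a difference of 0.67 ± 0.32 (limma adjusted p = 0.48).

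Complex II, succinate dehydrogenase, links the citric acid cycle to the chain and is the complex with no subunit from mitochondrial DNA. Its 4 genes did not shift together in arch against thymus. Sdhb, the iron-sulphur subunit, had 4314, 3692, 4053 and 3818 in arch, 4005, 9326, 6338 and 4436 in adipose tissue, and 5911, 7705, 6188 and 6999 in thymus. The 4 arch values were close together and below all thymus values, at -0.75 ± 0.27, which limma did not call (adjusted p = 0.101) and DESeq2 did (adjusted p = 0.0351). Sdhc, a membrane anchor that holds the ubiquinone site, had 1390.1, 1234, 739 and 185 in arch, 1364, 2008, 2469 and 1353 in adipose tissue, and 1497, 2056, 1509 and 2229.8 in thymus, a change of -1.33 ± 0.55 in arch against thymus (limma adjusted p = 0.157). Arch lay below thymus in every pool, and without arch pool 4, the lowest, the change was -0.72. Sdhd, the other anchor, went the opposite way in value, with 3471, 5573, 4497 and 7698 in arch, 2499, 5232, 3762 and 2881 in adipose tissue, and 3343, 3969.7, 2861 and 3233 in thymus (0.61 ± 0.31, limma adjusted p = 0.249). Sdha, the flavoprotein that oxidises succinate, averaged 4182 ± 826, 5346 ± 1254 and 5714 ± 798 in arch, adipose tissue and thymus (arch against thymus -0.46 ± 0.25, limma adjusted p = 0.295).

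Complex III passes electrons from ubiquinol to cytochrome c, and limma, edgeR and DESeq2 called 0 of its 8 tested subunits. Changes ran from -1.44 to 0.54 in arch against thymus and from -0.32 to 0.47 in adipose against thymus. Uqcrc1, a large matrix-side core protein, had 9384, 278, 6694 and 10933 in arch, 6952, 9961, 7776 and 9990.5 in adipose tissue, and 11931, 8835, 9529 and 11117 in thymus. Arch pool 2 was far below all others, and the fitted change in arch against thymus was -1.44 ± 0.74 with all pools (limma adjusted p = 0.253) and -0.22 without that pool. Uqcrh had 8469, 16614, 9881 and 17239 in arch, 9039, 10892, 9904 and 7226 in adipose tissue, and 8356, 10169, 8442 and 7442 in thymus. Its arch values fell into a higher pair, pools 2 and 4, and a lower pair inside the thymus range (0.54 ± 0.24, limma adjusted p = 0.195). Uqcrfs1, the Rieske iron-sulphur protein, averaged 8037 ± 2611, 7175 ± 1365 and 7429.6 ± 1332 in arch, adipose tissue and thymus.

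Complex IV, cytochrome c oxidase, reduces oxygen. It was the complex with the highest median change in arch against thymus, 0.23 over 12 tested subunits, 8 of them positive and 0 called by limma. By pool its median subunit differed from the thymus mean by 0.03, 0.13, -0.14 and 0.84 in arch pools 1 to 4, against -0.12 to 0.16 in the thymus pools. Of the arch pools only pool 4 lay above that range, and of the adipose pools only pool 2, at 0.25. Both were among the 4 shallowest pools. Arch pool 4 also had the highest fibroblast marker sum. The part of depth or of other cells was not tested. In adipose against thymus the median was -0.12 with 8 negative. Cox5b, a zinc-binding subunit on the matrix side, had 4897, 8362, 7251 and 12986 in arch, 5702, 5921, 6919 and 5223 in adipose tissue, and 3574, 4822, 3749 and 4935 in thymus. Arch overlapped thymus only through arch pool 1, and all adipose values lay above all thymus values. The change in arch against thymus was 0.90 ± 0.28 (limma adjusted p = 0.0575, DESeq2 adjusted p = 0.00446) and in adipose against thymus 0.48 ± 0.28 (limma adjusted p = 0.512). Of its transcript's 50-base stretches, 23% are shared with the predicted gene Gm11273, and how reads from both were assigned is not given in the sources used here. Cox8a, a small membrane subunit without such sharing, had 9379.5, 9439, 8807 and 11992 in arch, 6161, 8027, 6743 and 6714 in adipose tissue, and 5279, 8333, 6766 and 6714 in thymus. Every arch pool exceeded every other pool, by 0.56 ± 0.21 against thymus (limma adjusted p = 0.126, DESeq2 adjusted p = 0.0308) and 0.51 ± 0.21 against adipose tissue (limma adjusted p = 0.426).

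Cox4i1, the most abundant oxidase subunit, averaged 40428 ± 11542, 32674 ± 4423 and 32262 ± 3009 in arch, adipose tissue and thymus, with arch pool 4 at 57671 and the other arch pools at 33302 to 35793. It overlaps Cox4nb on the opposite strand of chromosome 8 by 352 bases, and the use of strand in counting is not given in the sources used here. Cox6b1, on the intermembrane side, averaged 11287 ± 3291, 7595 ± 706 and 9845 ± 1709.7, with arch above adipose tissue in every pool (0.53 ± 0.23, limma adjusted p = 0.45). Ndufa4 had 3093, 4164, 3556 and 2702 in arch, 2255, 4476, 3935 and 3073 in adipose tissue, and 4496, 5935, 6324 and 4894 in thymus. Its 8 extrathymic pools all lay below the thymus pools (arch -0.68 ± 0.28, limma adjusted p = 0.159; adipose -0.69 ± 0.28, limma adjusted p = 0.29).

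Isoforms known from other organs were scarce. Cox6a2, the heart and skeletal muscle form of subunit 6a, had 71 reads in adipose pool 4, 11 in thymus pool 1 and none in the other 10 pools, and Cox6a1 made up at least 99.29% of the pair in each pool. Cox7a1, the form of heart, muscle and brown fat, had 142 reads in arch pool 1 and 0 in the other arch pools, 77, 0, 87 and 17 reads in adipose tissue, and 38, 205, 130 and 74 reads in thymus. It took at most 2.98% of the Cox7a1 and Cox7a2 sum in any pool. No adipose pool exceeded the thymus range of this brown fat isoform. Cox6b2, known from testis, had 103, 0, 17.8 and 552 normalised counts in arch, 156, 164, 66.8 and 161 in adipose tissue, and 24.3, 50.9, 0 and 19.0 in thymus. Adipose values all exceeded thymus values, but at this level the change of 1.92 ± 1.08 was not called (limma adjusted p = 0.496), and Cox6b1 held at least 96.39% of the pair in each pool.

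Complex V, the ATP synthase, consists of a catalytic head, a rotating membrane ring and a stalk between them. None of its 15 subunits was called by limma in any comparison, and changes ran from -0.59 to 0.71 in arch against thymus and from -0.60 to 0.13 in adipose against thymus. Atp5b and Atp5a1, the beta and alpha subunits of the head, averaged 28555 ± 12864 and 19149 ± 6187 in arch, 32171 ± 8822 and 19430.1 ± 4356 in adipose tissue, and 31255 ± 4037 and 17476 ± 2830.3 in thymus. Atp5h, of the peripheral stalk, had 10094, 11447, 10983 and 11389 in arch, 9158, 15522, 11068 and 8979.9 in adipose tissue, and 14998, 20498, 17703 and 13758 in thymus. Every arch pool and 3 of 4 adipose pools lay below the thymus range. The changes were -0.59 ± 0.21 in arch (limma adjusted p = 0.091, DESeq2 adjusted p = 0.0264) and -0.60 ± 0.21 in adipose tissue (limma adjusted p = 0.158). Leaving out adipose pool 2, the only adipose pool inside the thymus range, brought the adipose value to -0.77 with a limma adjusted p of 0.0444. Leaving out any other single pool gave no call in adipose tissue. Its transcripts share 38.8% of their 50-base stretches with other genes, Gm10250 most of all.

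Subunit c, which forms the rotating ring, is encoded by 3 genes for the same mature protein. Atp5g1 gave 18.0%, 14.5%, 17.5% and 29.9% of their sum in the arch pools, 15.0%, 10.2%, 14.5% and 14.4% in the adipose pools, and 12.6%, 12.6%, 9.30% and 15.0% in the thymus pools. Of the arch pools only pool 2 fell within the thymus range, and pool 4 was the highest. All adipose pools fell within the thymus range. In level, Atp5g1 averaged 3691 ± 1717, 2165 ± 307 and 2155 ± 494 in arch, adipose tissue and thymus, with all arch pools above all others (0.71 ± 0.35 against thymus, limma adjusted p = 0.233). Atp5g3 gave the largest share in every pool but arch pool 2, 45.5 ± 6.79% in arch, 52.0 ± 4.94% in adipose cells and 56.5 ± 5.29% in thymus. Atp5g2 gave 34.6 ± 7.76%, 34.5 ± 3.63% and 31.1 ± 4.11% in arch, adipose tissue and thymus, but 87.4% of its 50-base stretches occur in other genes, as do 11.1% of those of Atp5g1 and 0% of those of Atp5g3.

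**Figure D4:**
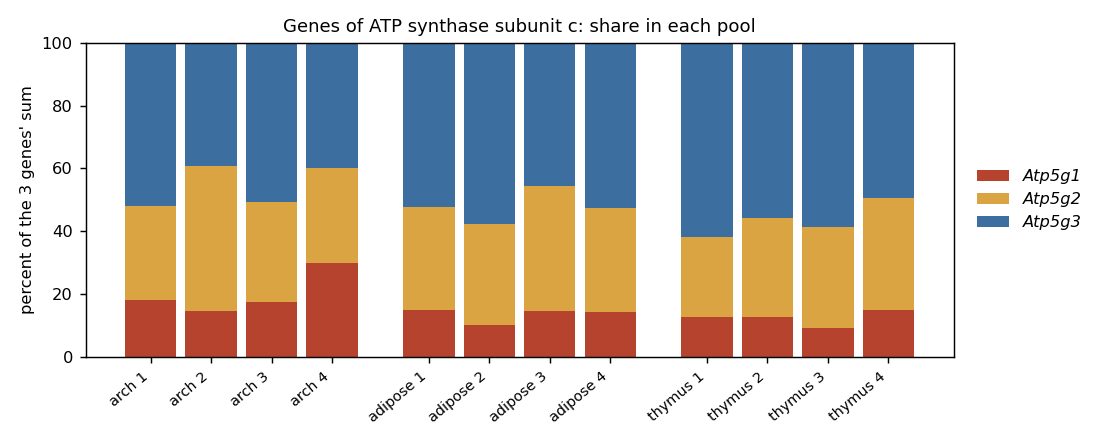
Share (percent, y axis) of Atp5g1, Atp5g2 and Atp5g3 in the sum of the 3 genes of ATP synthase subunit c, in each arch, adipose and thymus pool. Atp5g1 is largest in arch pool 4 (29.9%) and smallest in thymus pool 3 (9.30%).

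Assembly factors were weakly expressed and varied widely. Limma, edgeR and DESeq2 called 0 of the 7 in each comparison. Ndufaf1, which helps build the membrane arm of complex I, averaged 974 ± 745 in arch, 468 ± 511 in adipose tissue with no read in pool 2, and 845 ± 406 in thymus. Ndufaf2 and Ndufaf4, both complex I factors, averaged 312 ± 287 and 498 ± 493 in arch, 335 ± 297 and 569.6 ± 202 in adipose tissue, and 432 ± 168 and 460.3 ± 353 in thymus. Atp5s and Atp5sl averaged 180.0 ± 75.9 and 829.6 ± 588 in arch, 145 ± 151 and 1754 ± 635 in adipose tissue, and 136 ± 151 and 1346 ± 178 in thymus. Cox7a2l, counted here as an assembly factor, was the exception in level, with 13937, 9505, 9700.0 and 16072 in arch, 12472, 15221, 10406 and 9658 in adipose tissue, and 10243, 10595, 11344 and 11180.1 in thymus. The tissues overlapped, at 0.15 ± 0.21 in arch and 0.12 ± 0.21 in adipose tissue against thymus (limma adjusted p = 0.728 and 0.899).

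The subunits were also read pool by pool. In arch pool 4, 7 of 82 tested members were more than 4-fold below the thymus mean (8.54%), beside 23.8% of all tested genes, and in arch pool 2 this held for 3 members (3.66%), beside 21.5%. Ndufs1, Ndufs7, Ndufa10 and Sdhc were among them in pool 4, and Uqcrc1 in pool 2. Pool 4 was at the same time the highest arch pool for Cox4i1, Cox5b, Cox8a and Atp5g1, with the complex IV median given above. Over the 74 tested subunits, the rank correlation of transcript length with the difference from the thymus mean ran from -0.26 in arch pool 4 to 0.42 in adipose pool 4 and was -0.22 to 0.38 among the thymus pools; with the change it was, in arch against thymus, adipose against thymus and arch against adipose, -0.16, 0.30 and -0.32. These describe genes of the same libraries, and length goes with complex: the median transcript was 1312 bases for the complex I core, 718 for its accessory subunits, 1612 for complex II and 588.5 for complex IV.

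**Figure D5:**
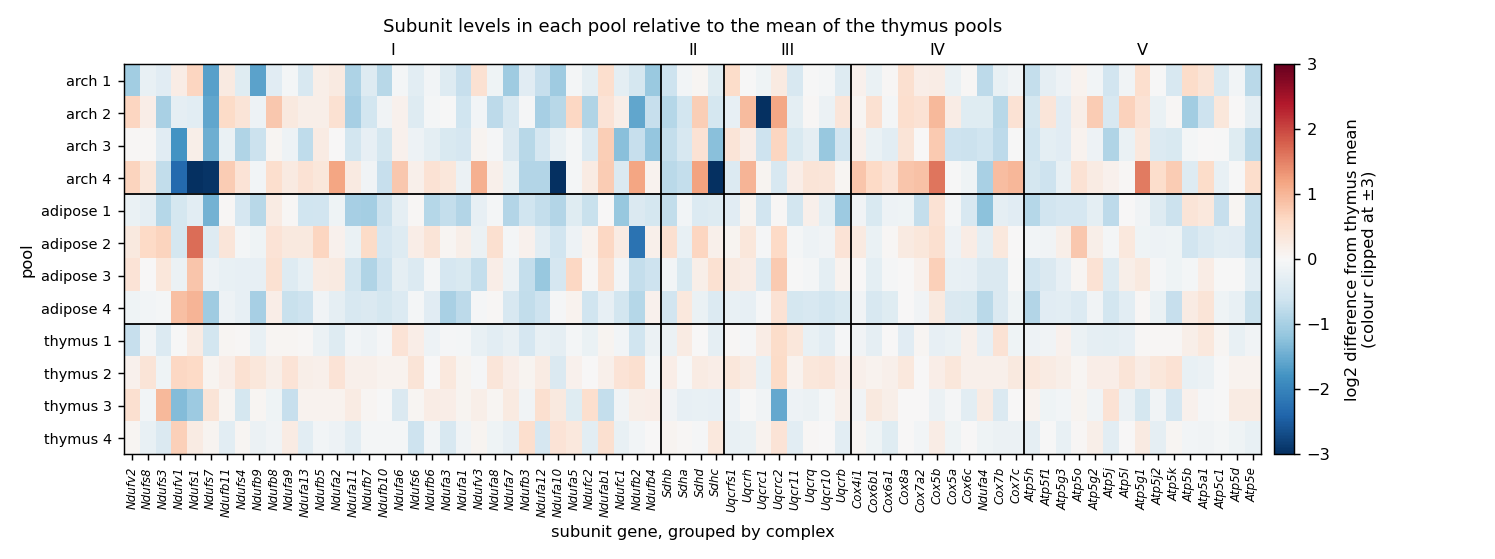
Log2 difference of the subunits shown (x axis, grouped by complex) from the mean of the thymus pools, in every arch, adipose and thymus pool (rows); blue is lower, red is higher, and colour stops at ±3. The darkest cells are single pools, such as Ndufs1, Ndufs7, Ndufa10 and Sdhc in arch pool 4 and Uqcrc1 in arch pool 2, while Ndufs7 is blue in all 4 arch pools.

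Genes around the chain were counted from lists chosen by function. Their calls by limma stand beside 3.99% of all tested genes higher and 2.58% lower in arch against thymus, and 2.17% higher in adipose against thymus. Of 4 subunits named outside the symbol rule, limma and edgeR called 0; Cyc1, the cytochrome subunit of complex III, averaged 1653 in arch and 3789 in thymus (-1.82 ± 0.63, limma adjusted p = 0.0904), and Usmg5 of the ATP synthase 9424 in arch and 5786 in thymus (0.70 ± 0.25, limma adjusted p = 0.103, DESeq2 adjusted p = 0.0301). Of 18 electron carriers and coenzyme Q genes, limma called 1 higher and 0 lower in arch against thymus, while DESeq2 also called Sqrdl and Pdss1 lower (adjusted p = 0.037 and 0.0489). The gene called by limma was Coq10b, whose protein binds coenzyme Q, at 7906 ± 2200 in arch, 3251 ± 926 in adipose cells and 424 ± 169 in thymus (SD, n = 4 pools each), a rise of 4.20 ± 0.38 on the log2 scale in arch and 2.92 ± 0.38 in adipose tissue (limma adjusted p = 1.1e-06 and 0.000106). Without arch pools 2 and 4 the rise in arch was 3.98 (limma adjusted p = 0.000125).

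Of 26 further assembly factors, limma called 2 lower and 0 higher in arch against thymus, edgeR called 0, and DESeq2 called these 2 and Surf1 lower (adjusted p of Surf1 = 0.0343). No tool called any in adipose against thymus. Atpaf1, a chaperone of the ATP synthase head, averaged 84.8 ± 94.7 in arch, 822 in adipose cells and 920.3 ± 216 in thymus (arch against thymus -3.65 ± 0.84, limma adjusted p = 0.0119). Taco1, a translational activator for an oxidase subunit encoded in mitochondria, had no read in any arch pool and averaged 45.0 in adipose tissue and 316 ± 203 in thymus (arch against thymus, limma adjusted p = 0.0394). The edgeR test called neither (adjusted p = 0.121 and 0.0732). Without arch pools 2 and 4 the limma adjusted p was 0.0384 for Atpaf1 and 0.153 for Taco1, whose call was lost at an equal fitted change, with fewer pools.

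Of 21 tested genes of the citric acid cycle and pyruvate dehydrogenase, limma called 0 in each comparison, with 3 (14.3%), 0 and 5 (23.8%) at an unadjusted p under 0.05, beside 22.7%, 12.8% and 10.5% of all tested genes, in arch against thymus, adipose against thymus and arch against adipose. The edgeR test also called 0, and DESeq2 called Ogdh, a subunit of the oxoglutarate dehydrogenase complex, lower in arch (adjusted p = 0.0174 against thymus and 0.0499 against adipose tissue). Of 9 mitochondrial carriers and channels limma called 1 higher in each tissue, Slc25a3, which imports the phosphate that the ATP synthase uses: it averaged 17748 ± 3778 in arch, 23001 ± 4613 in adipose cells and 10065 ± 1425 in thymus (0.80 ± 0.21 in arch and 1.18 ± 0.21 in adipose tissue, limma adjusted p = 0.0237 and 0.00173). Of 12 regulators and maintenance genes of mitochondrial DNA and biogenesis, limma called 2 higher in arch and 1 in adipose tissue against thymus. Polg2, the accessory subunit of the mitochondrial DNA polymerase, averaged 3441 ± 1547 in arch, 1791 ± 179 in adipose cells and 355 ± 155 in thymus (3.19 ± 0.48 in arch and 2.37 ± 0.48 in adipose tissue, limma adjusted p = 0.000293 and 0.00633). Tfb2m, a mitochondrial transcription factor, averaged 2216 ± 437 in arch, 1655 in adipose cells and 458 ± 339 in thymus, and passed in arch (2.81 ± 0.71, limma adjusted p = 0.0223) but not in adipose tissue (2.38 ± 0.71, limma adjusted p = 0.0887). The edgeR test did not call Tfb2m in arch (adjusted p = 0.0892). Without arch pools 2 and 4 the limma adjusted p in arch against thymus was 0.0135 for Slc25a3, 0.00242 for Polg2 and 0.082 for Tfb2m, whose call was lost at a change of 2.93 (2.81 with all pools). Between arch and adipose cells limma called none of these 6 genes (adjusted p of at least 0.188), whereas DESeq2 called Coq10b, Atpaf1 and Taco1 (adjusted p = 0.0103, 0.025 and 0.0457).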

How the data were processed

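Libraries of sorted DP cells (26 in all, 1 to 3 per pool) were read as 50 bp single ends. The submitters' processing notes name FastQC 0.11.5, STAR 2.6.0c and GRCm38. Neither a counting tool nor an annotation is given in the sources used here. The table deposited by the authors holds 1 normalised signal per gene and pool. All 120369 values above 0 (100%) were whole multiples, within 0.01, of the smallest value of their column, which gave back whole reads.

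Because the unit is a normalised signal, limma 3.58.1 with an intensity trend (R 4.3.3) on log2(value + 20) was the main test. Genes with at least 100 in at least 4 of 12 columns entered, 9106 of 13765, in 1 fit of all pools with tissue as the only term. Errors of log2 changes are SE, those of counts SD. Tests by edgeR 4.0.16 and DESeq2 1.42.0 on recovered reads, other pseudocounts, filters and scalings, and fits without each pool were alternatives. Changes of low genes can be understated or overstated on this scale. Cox6b2 in arch against thymus was 1.11 by limma and 2.79 by edgeR. Ndufaf1 in adipose against thymus was -1.74 by limma and -0.80 by edgeR, with no read in adipose pool 2. Reads carry no molecular identifiers. Scripts were tested on simulated data.

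Members with values in the text were those called by any tool, the 3 with the largest change per comparison and direction, the 2 most abundant per complex, restricted isoforms, complex II and subunit c. Other complex I core subunits, Ndufa4, Ndufb10, Uqcrfs1, Ndufaf3 and Cox7a2l were added after their values were seen. Members and lists were chosen with earlier results of these data known. Transcript lengths and shared 50-base stretches come from GENCODE transcripts of the same genome; 37 of the members share none and 24 share at least 10%. The values of 1 member are not reported here. Cox4i2, Cox7b2, Cox8b, Cox8c, Ndufa4l2, Ndufs5 and Ndufb1 were not among the 84 rows that the symbol rule gave.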

Additional observations from a re-analysis of the deposited data

Results flagged for a closer look

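A pool lay far from the other 3 of its tissue, by the gap to its nearest neighbour relative to the range, in 10 of 108 groups examined, which were 31 members named by rule and the 5 complex totals in each tissue. Chance flags about 1 in 20 groups, but some of these members were named for large fitted changes, which 1 outlying pool can produce, so that rate does not apply as it stands. In 7 of the 10 the tissue was arch. Arch pool 4 was high for Atp5g1 at 6256 normalised counts (others 2642 to 3016) and for Cox4i1 at 57671 (others 33302 to 35793). It was low for Ndufa10 at 26.4 (others 1462 to 2622), for Ndufs1 at 0 (others 1444 to 2814) and for Ndufs7 at 386 (others 979.6 to 1106). Arch pool 2 was low for Uqcrc1 at 278 (others 6694 to 10933), and arch pool 1 high for Cox7a1 at 116 (others 0). In adipose tissue, Cox6a2 stood at 53.2 in pool 4 (others 0) and Cox6b2 at 66.8 in pool 3 (others 156 to 164). In thymus, Cox6a2 stood at 6.23 in pool 1 (others 0).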

How the results depend on the processing

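The count of members called in arch against thymus was 1 as reported, 5 with DESeq2, 0 without 3 of the 4 shallowest pools (arch 2 and 4, thymus 3), 0 without arch pools 2 and 4, and 1 to 2 when each pool was left out in turn; the second, without arch pool 1, was Cox5b (log2 change 1.12, limma adjusted p = 0.0173). Over these settings the adjusted p of Ndufs7 ran from 0.000193 to 0.114 and its change from -2.08 to -1.42. In adipose against thymus the count was 0 as reported, 1 with array weights (Atp5h, limma adjusted p = 0.0328) and 0 to 1 when each pool was left out. The 1 was Atp5h, without adipose pool 2. In arch against adipose it was 0 under each setting run. Without arch pools 2 and 4, an alternative chosen after seeing the data, members with non-overlapping values numbered 27 in arch against thymus (12 as reported). In arch against adipose they numbered 10 (5 as reported). Over all tested genes the counts rose as well, from 1206 to 2459 and from 487 to 1428, because fewer pools make separation easier. Ndufs1 in arch against thymus turned to 0.042 without those 3 pools and 0.405 without arch pools 2 and 4, and ran from -2.217 to 0.165 when each pool was left out, positive only without arch pool 4, in which it had no read. The arch over thymus ratio of complex II totals was 0.816 as reported, 0.732 in CPM and 0.953 without its most abundant member, and that of complex III was 1.04 as reported, 0.93 in CPM and 0.92 without its most abundant member. The adipose over thymus ratio of complex V totals was 0.909 as reported and 0.877 without its most abundant member. With the pool number as a replicate block the count stayed at 1 and the limma adjusted p of Ndufs7 was 0.0129. Deviations of same-numbered pools correlated at -0.03 to 0.08 in 12 pairs, 0 of them over 0.1. Their median was 0.029, beside -0.0035 for other pairs, and 5 of 12 pools correlated best with their own number. Correlations this weak cannot show whether same-numbered pools came from the same mice. Of the changes of named members and called list genes, 526 recomputed values kept direction and side of the threshold. Of the other recomputed values, 3 reversed direction, 5 became calls and 4 lost a call. Among the members only Ndufs7 in arch against thymus was a call as reported. For every other member, keeping the side of the threshold meant staying uncalled, so the count of 526 says little about how stable calls are. The list genes were recomputed only without arch pools 2 and 4, a choice made after seeing the data. Amplified low-input libraries and 4 pools per tissue limit weakly expressed members such as several of the assembly factors.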
